A study of Rattus norvegicus with 9 samples.

Results

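Sterol and fatty acid synthesis was followed through 32 genes, chosen by symbol as enzymes of cholesterol synthesis, enzymes that build and modify fatty acids, and the regulators and exporter that act on them. All 32 were among the 20194 genes of the deposited table. They comprised 18 sterol enzymes, 9 fatty acid enzymes and 5 regulators and exporters, and 31 of the 32 were expressed highly enough to be tested. RNA-Seq had been run on dorsal root ganglion (DRG) tissue, the cluster of sensory neuron cell bodies, glia and other cells beside the spinal cord, from male Sprague Dawley rats. The 3 groups had 3 libraries each, namely sham surgery, spared nerve injury (SNI), and SNI with G15 (SNI + G15). SNI is a rat model of neuropathic pain in which branches of the sciatic nerve are cut and 1 branch is left intact, and G15 is an antagonist of the G protein-coupled oestrogen receptor GPER. Catheters for intrathecal delivery were placed on day 5 after SNI, and the labels give 2% DMSO as the solvent and 24 h as the time of dosing. The titles of the sham and SNI libraries mark them as controls for G15, but whether those rats received vehicle is not given in the sources used here. Tissue was taken whole, so in these bulk samples fewer cells of a type and less RNA per cell cannot be told apart.

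Animal cells build cholesterol from acetyl-CoA through the mevalonate pathway, which makes the isoprenoids and then squalene, and through the enzymes that close squalene into a ring and trim it. Acetyl-CoA in the cytosol is also the starting point of fatty acids, which are then elongated and desaturated. The SREBP transcription factors switch on both branches when sterols in the endoplasmic reticulum are low, and the INSIG proteins hold them back when sterols are plentiful. In peripheral nerve tissue both branches supply the lipids of myelin and of other membranes.

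Sequence upstream of the genes is shown first because 7 of the 10 genes that fell with G15 have a RefSeq promoter window, and because shared control through promoters is what this pathway is known for. Each window spans 250 bases before to 50 bases after the annotated start site in the rat assembly GRCr8. Windows were found for 26 of the 32 genes and none for Pmvk, Fdft1, Sqle, Acaca, Fasn and Elovl6. The 5 printed windows belong to the 4 genes that fell with G15 and hold CCAAT, the letters bound by NF-Y, and to Abca1, which rose most after injury. Capitals mark CCAAT, which reads ATTGG on the other strand, and the E-box CACGTG. Each sequence runs 5′ to 3′ along the strand of its gene.
Hmgcs1 (chr2:53382054-53382353, plus strand): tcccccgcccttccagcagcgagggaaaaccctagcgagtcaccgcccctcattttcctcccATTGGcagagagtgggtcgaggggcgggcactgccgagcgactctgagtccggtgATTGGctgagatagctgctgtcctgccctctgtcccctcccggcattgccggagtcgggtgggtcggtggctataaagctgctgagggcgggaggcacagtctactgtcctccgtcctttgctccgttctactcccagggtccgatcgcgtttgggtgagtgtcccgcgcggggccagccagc
Lss (chr20:12118181-12118480, minus strand): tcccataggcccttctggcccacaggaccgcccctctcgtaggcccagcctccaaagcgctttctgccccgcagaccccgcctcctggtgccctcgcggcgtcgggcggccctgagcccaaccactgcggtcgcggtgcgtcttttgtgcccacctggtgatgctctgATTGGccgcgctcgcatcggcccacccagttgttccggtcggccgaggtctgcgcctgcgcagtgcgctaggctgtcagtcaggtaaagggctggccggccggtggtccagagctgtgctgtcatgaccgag
Hsd17b7 (chr13:84722705-84723004, minus strand): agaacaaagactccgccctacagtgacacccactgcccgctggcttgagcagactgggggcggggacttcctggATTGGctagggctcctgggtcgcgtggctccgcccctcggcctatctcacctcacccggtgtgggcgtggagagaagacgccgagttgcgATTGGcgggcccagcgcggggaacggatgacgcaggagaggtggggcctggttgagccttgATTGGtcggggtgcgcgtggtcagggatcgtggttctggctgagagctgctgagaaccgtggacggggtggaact
Insig1 (chr4:8057720-8058019, minus strand): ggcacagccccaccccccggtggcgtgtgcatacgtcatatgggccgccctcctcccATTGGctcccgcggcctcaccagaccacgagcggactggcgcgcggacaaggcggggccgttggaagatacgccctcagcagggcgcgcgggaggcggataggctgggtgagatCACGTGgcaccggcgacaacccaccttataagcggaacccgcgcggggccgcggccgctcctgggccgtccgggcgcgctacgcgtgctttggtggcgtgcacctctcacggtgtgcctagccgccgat
Abca1 (chr5:72596424-72596723, minus strand): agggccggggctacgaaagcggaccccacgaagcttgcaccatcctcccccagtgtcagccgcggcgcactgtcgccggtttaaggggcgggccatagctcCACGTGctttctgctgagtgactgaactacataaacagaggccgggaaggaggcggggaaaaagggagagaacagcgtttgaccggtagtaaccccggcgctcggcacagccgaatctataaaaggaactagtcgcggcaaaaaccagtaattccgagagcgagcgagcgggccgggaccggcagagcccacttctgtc

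Hmgcs1 held 2 CCAAT matches, Lss 1, Hsd17b7 3 and Insig1 1, all of them on the opposite strand. The Lss match began at position -82 and the Insig1 match at position -193, counted from the start site. Over all 26 windows CCAAT was present on either strand in 19, or 73.1%, against 37.5% of the 33469 windows in the RefSeq table and 36.9% of the 12563 windows of genes tested here. It was found in 12 of 15 windows of sterol enzymes and in 3 of 6 of fatty acid enzymes. GGGCGG, the core of the Sp1 site, was present in 20 of 26 windows, or 76.9%, against 59.2% of the windows of genes tested. CACGTG was present in 4 of 26, those of Sc5d, Elovl5, Insig1 and Abca1, against 8.88%. TCACNCCAC, the core of the sterol regulatory element, was in none of the 26 and in 1.12% of all windows, which says only that these letters do not occur in these stretches. Among the 7 windows of genes that fell with G15, 4 held CCAAT and 6 held GGGCGG. Of the 19 windows of the other genes, 15 held CCAAT and 14 held GGGCGG. The windows are few and the falling genes Fdft1, Sqle and Fasn have none, so a link of either motif with the fall was not tested. The matches are descriptions of the letters and not of binding.

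Depth and cell markers of the 9 libraries were as follows. Library totals lay between 18484557 and 18756736 estimated reads. The 6 injury response markers, Atf3 among them, were all higher in SNI than in sham, with Atf3 (a stress-induced transcription factor of cut neurons) at 7.57, 8.29 and 6.97 CPM (counts scaled to the same normalized library total) in sham and 269, 265 and 259 in SNI. Sensory neuron markers, the check of the tissue label, were present throughout: their summed level per length (FPKM, read fragments scaled for gene length and library size) was 17190 to 17570 for the sham libraries, and lower after SNI, at 15090 to 15490 without G15 and 15280 to 16200 with it. Library 3 of SNI + G15 stood apart from its 2 companions, with a chi-square per gene of 9.24 and 8.93 against 3.29 between the other 2. Among the pathway genes, its long genes were low and its short genes high. All 6 with an effective length over 4000 bases had their lowest SNI + G15 value in it, though Scd only by 263 against 264 CPM. All 4 under 1500 bases had their highest SNI + G15 value in it. Counts of called pathway genes that rest on this group, and some of their fold changes, are therefore also given without it. Counts and sums of the cell markers and counts of the further pathway lists include it.

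The genes differed widely in level. In sham, the mean FPKM ranged from 5.88 ± 0.736 for Insig2 to 274 ± 16.0 for Fdps (SD, n = 3), with a median of 53.1 over the 31 genes tested. Fdps, which makes farnesyl diphosphate, the branch point between sterols and other isoprenoids, stood first in all 3 groups. Hmgcs1, the synthase at the entry to the mevalonate pathway, stood second at 204 ± 9.41 FPKM in sham, 220 ± 3.72 in SNI and 179 ± 7.34 in SNI + G15. Elovl5, an elongase of polyunsaturated fatty acids, followed in sham at 136 ± 5.45 FPKM, and its range overlapped that of Cyp51, the lanosterol demethylase, at 129 ± 5.99. Of the 30 neighbouring pairs in the sham order, 15 had overlapping ranges and 15 did not. Abca1, the cholesterol exporter, was second from the bottom in sham at 7.23 ± 0.376 FPKM, between Hsd17b7 at 7.54 ± 0.374 and Insig2. In SNI it stood at 18.6 ± 0.616 FPKM, above Acaca and Hsd17b7. Elovl6, an elongase that takes palmitate to stearate, was listed between 0 and 0.42 FPKM over the 9 libraries and at 0 in all 3 SNI + G15 libraries, and was not tested.

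**Figure D1:**
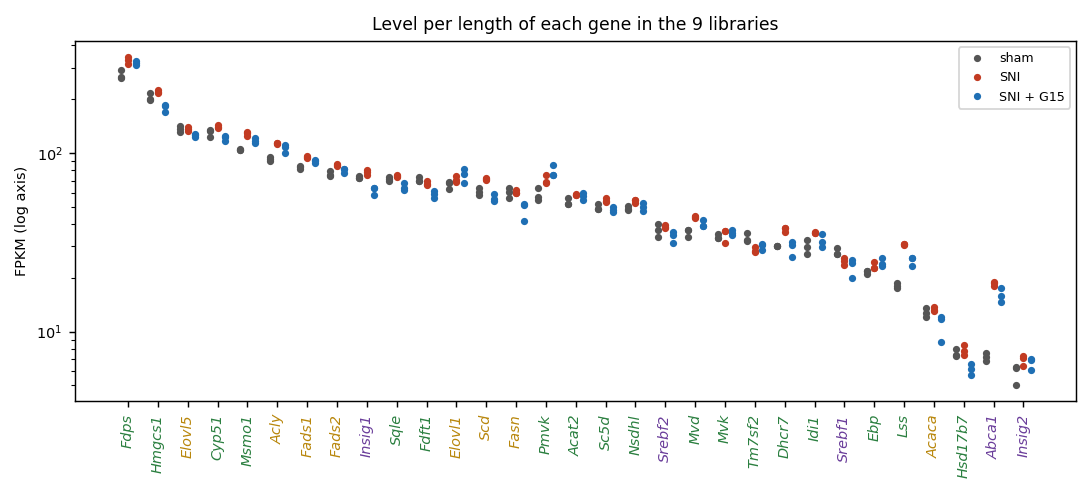
FPKM of the 31 tested genes in each of the 9 libraries, on a log axis, ordered by the sham mean (grey sham, red SNI, blue SNI + G15; gene names green for sterol enzymes, ochre for fatty acid enzymes, purple for regulators and exporter). Fdps stands first at 274 in sham, and Lss and Abca1 are the genes whose SNI points lie far above their sham points.

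The first comparison asked how the pathway differed after nerve injury. Of 31 genes tested, 12 were higher and 3 lower in SNI than in sham at an adjusted p below 0.05 (edgeR quasi-likelihood test, Benjamini-Hochberg over all 14305 genes tested). Over all genes tested 45.7% were called, 23.3% higher and 22.4% lower. The median log2 fold change was 0.09 over the 31 genes and 0.001 over all genes. In 17 genes every SNI library was above every sham library and in 3 every one was below, against 27.2% and 28.1% of all genes (55.3% in either direction). Apart from Abca1 and Lss, all called changes were between 0.11 and 0.29 on the log2 scale in size.

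Among the sterol enzymes 7 of 18 rose and 2 fell, or 11 and 1 with scaling to library size alone and 10 and 1 with limma on FPKM. Over all genes, scaling to library size alone called 3745 higher and 2691 lower, and limma on FPKM plus 1 called 3537 and 2568. Lss, the synthase that closes oxidosqualene into lanosterol, had 52.7, 51.2 and 54.8 CPM in sham and 87.3, 87.4 and 87.6 in SNI. The groups were far apart and the 3 SNI values nearly equal, and the log2 fold change was 0.73 ± 0.042 (SE), at an adjusted p of 2.82e-07 by edgeR. Msmo1, which oxidizes the methyl groups of the sterol ring, had 180, 182 and 181 CPM in sham and 221, 218 and 210 in SNI, a log2 fold change of 0.26 ± 0.036.
Dhcr7, the last reductase on the way to cholesterol, had 74.7, 75.0 and 74.8 CPM in sham and 87.4, 93.1 and 92.2 in SNI, a log2 fold change of 0.29 ± 0.042. Mvd, which decarboxylates mevalonate diphosphate, had 57.5, 62.5 and 63.1 CPM in sham and 73.4, 71.2 and 72.4 in SNI, a log2 fold change of 0.25 ± 0.048. No sham value of these 4 genes reached the lowest SNI value. The other sterol enzymes that rose belong to the mevalonate and isoprenoid steps, namely Pmvk by 0.25, Fdps by 0.24 and Idi1 by 0.22 on the log2 scale.

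The 2 sterol enzymes that fell were Tm7sf2, a sterol reductase of the endoplasmic reticulum, at a log2 fold change of -0.25 ± 0.054, and Fdft1. Fdft1, the squalene synthase, had 225, 237 and 227 CPM in sham and 207, 219 and 211 in SNI, a log2 fold change of -0.11 ± 0.039 with an adjusted p of 0.0455 by edgeR. The groups did not overlap, but the call was lost when any of 5 single libraries was left out. The remaining 9 sterol enzymes, Hmgcs1, Sqle, Cyp51 and Hsd17b7 among them, had log2 fold changes between 0.01 and 0.11 and were not called.

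Of the 8 fatty acid enzymes tested, 4 rose and none fell. Acly, which makes cytosolic acetyl-CoA from citrate and so feeds both branches, had 406, 399 and 422 CPM in sham and 488, 485 and 491 in SNI. Its log2 fold change was 0.26 ± 0.033 with an adjusted p of 8.04e-05 by edgeR, and the groups were well separated. Scd, a stearoyl-CoA desaturase, had 306, 283 and 293 CPM in sham and 336, 343 and 339 in SNI, a log2 fold change of 0.22 ± 0.037. Fads1, the delta-5 desaturase of polyunsaturated fatty acids, had 287, 291 and 281 CPM in sham and 315, 319 and 323 in SNI, a log2 fold change of 0.16 ± 0.033. Fads2, its delta-6 partner, rose by 0.12 on the log2 scale, a call that was lost when single libraries were left out.
The enzymes that build the chain itself did not pass the test. Acaca, the acetyl-CoA carboxylase that commits carbon to fatty acids, had a log2 fold change of 0.03, and Fasn, the fatty acid synthase, of -0.02, and the latter changed sign with the scaling of the libraries. Fasn had 566, 525 and 600 CPM in sham and 546, 550 and 566 in SNI, so all SNI values lay inside the sham range.

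**Figure D2:**
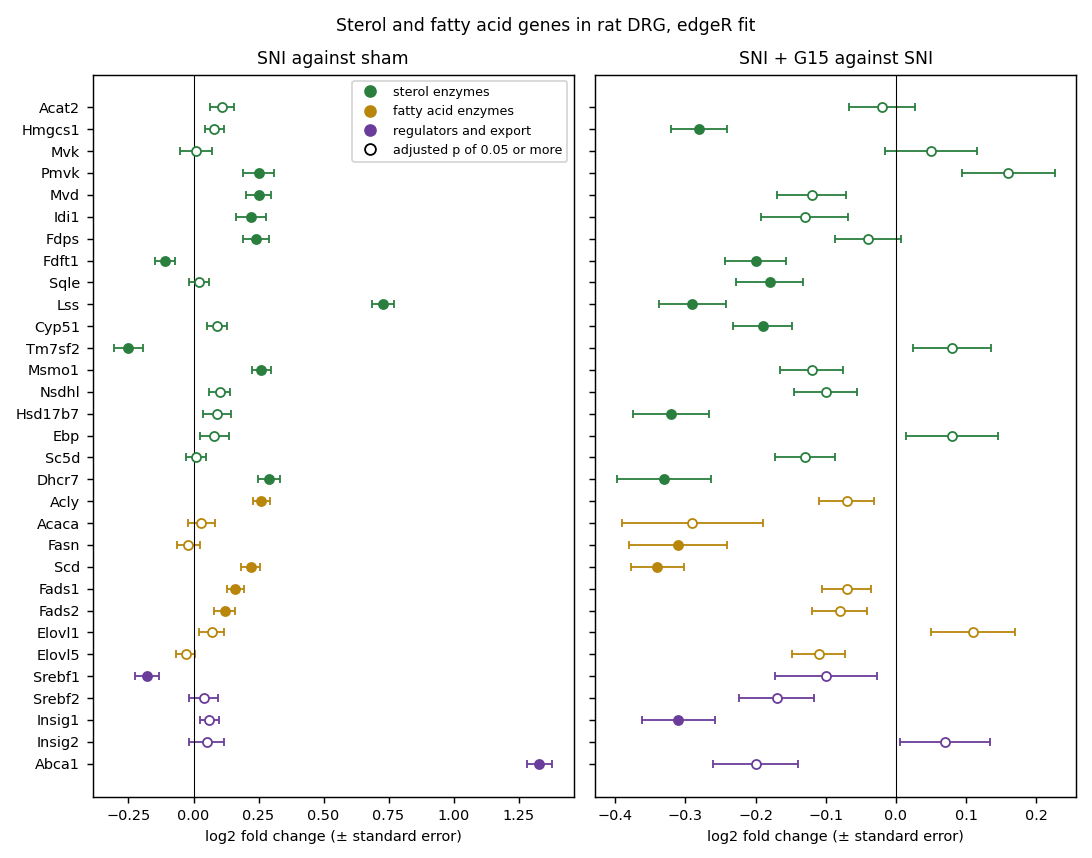
Log2 fold change with its standard error for each of the 31 tested genes, in pathway order, for SNI against sham (left) and SNI + G15 against SNI (right); filled points have an adjusted p below 0.05 by edgeR. The x axes differ in range. On the left Abca1 (1.33) and Lss (0.73) stand out, and on the right the filled points all lie between -0.34 and -0.18.

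Among the regulators and exporter, the largest change of all 31 genes was in Abca1, the membrane pump that loads cholesterol onto apolipoproteins and a classical target of the liver X receptors. It had 81.7, 73.8 and 77.9 CPM in sham and 188, 197 and 199 in SNI. The groups were far apart, with a 2.52-fold difference (log2 fold change 1.33 ± 0.047, adjusted p of 6.91e-09 by edgeR).
Srebf1, which encodes the SREBP-1 factors and leans towards fatty acid genes, had 107, 109 and 116 CPM in sham and 93.7, 97.3 and 100 in SNI. It fell by 0.18 on the log2 scale (SE 0.046, adjusted p of 0.00949 by edgeR). Srebf2, whose product SREBP-2 leans towards sterol genes, had 190, 175 and 207 CPM in sham and 194, 190 and 199 in SNI. Insig1, itself a target of the SREBP factors that it restrains, had 182, 179 and 180 CPM in sham and 180, 192 and 187 in SNI. Insig2 had 13.8, 14.6 and 13.2 CPM in sham and 13.9, 14.5 and 14.4 in SNI. For these last 3 genes the groups overlapped and the log2 fold changes, between 0.04 and 0.06, were not called.

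**Figure D3:**
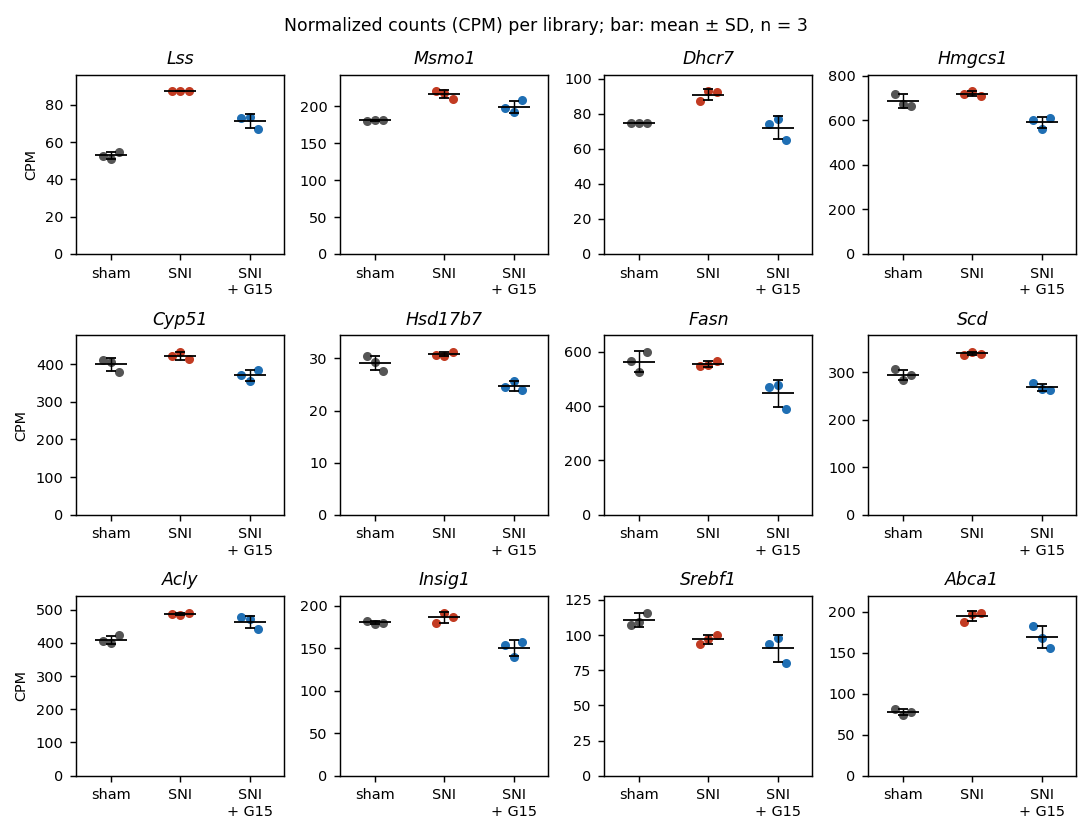
CPM per library of 12 genes, with each point a library and the bar the mean ± SD (n = 3) of sham, SNI and SNI + G15; y axes start at 0. In Lss the SNI + G15 points (67.2 to 73.8) lie between sham and SNI, in Hmgcs1 and Insig1 they lie below both, and in Abca1 they lie between 156 and 183, above the highest sham value of 81.7.

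Markers of several cell types moved with injury. Of 12 macrophage markers 11 were called higher in SNI, and their summed FPKM went from between 181 and 194.1 in sham to between 401.1 and 432.8. Of 12 markers of myelinating Schwann cells 8 were called lower, and their sum went from between 5540 and 5653 to between 3164 and 3223 FPKM. Of 11 sensory neuron markers 7 were called lower and 3 higher, and their sum went from between 17190 and 17570 to between 15090 and 15490 FPKM. All 5 erythroid markers were higher, with a sum of 95.23 to 99.23 FPKM in sham and 318.2 to 327.1 in SNI. Satellite glia had 3 of 7 markers called higher and none lower. Their summed FPKM was 287.8 to 289.9 in sham and 351.7 to 361.5 in SNI. Repair Schwann cells had 3 of 4 tested markers called higher and 1 lower, and fibroblasts had 2 of 6 called higher and 2 lower. Of 9 adipocyte markers, 5, including Adipoq, Lep and Plin1, stayed at or below 0.75 FPKM in every library, while the list's sum went from between 6.28 and 7.86 to between 11.46 and 12.27. Their part in the changes of the pathway genes was not tested.

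Other genes of the same pathways, from 3 further lists, were called in both directions, as were genes in general. The shares over all genes tested were 23.3% higher and 22.4% lower. Among 16 other genes of sterol synthesis and uptake, 8 rose and 2 fell in SNI. Soat1, which esterifies cholesterol for storage, rose by 0.49, while Acat1, a mitochondrial thiolase, fell by 0.27 and Mbtps1, a protease that cleaves the SREBP proteins, fell by 0.15 on the log2 scale.
Among 14 genes of sterol efflux, transport and oxysterols, 4 rose and 5 fell. Ch25h and Cyp7b1, both enzymes of oxysterol metabolism, rose by 0.83 and 0.80 but were low, at no more than 4.43 CPM in any SNI library, and Cyp7b1 (adjusted p of 0.0475 by edgeR) was called in 9 of 15 alternative fits, losing its call without sham library 1 or 3 or without any 1 SNI library (log2 fold change from 0.379 to 1.11 over the 15). Lipa, the lysosomal lipase, fell by 0.37, Abcg1, a second sterol exporter, fell by 0.34 and Nr1h2, a liver X receptor, fell by 0.20. Abcg1 thus fell while Abca1 rose.
Among 23 tested genes of other fatty acid synthesis and activation, 6 rose and 9 fell. Acsl4, which activates arachidonic acid, had 47.0, 41.9 and 44.0 CPM in sham and 85.0, 94.3 and 90.8 in SNI, a log2 fold change of 1.03 ± 0.056. Scd4, another desaturase, rose by 1.20 from a sham level of 0.714 to 1.21 CPM, and Fads3 rose by 0.42. Fa2h, the hydroxylase of myelin sphingolipids, had 71.1, 69.6 and 74.2 CPM in sham and 42.1, 39.7 and 39.9 in SNI, and it fell by 0.81. Acsl6 fell by 0.63 and Acacb, the mitochondrial acetyl-CoA carboxylase, fell by 0.62 on the log2 scale.

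The second comparison asked what differed in injured rats given G15. With G15, 10 of the 31 genes were lower and none was higher (edgeR, adjusted p below 0.05). Over all genes tested 15.2% were called, 7.98% higher and 7.25% lower. The fold change was negative in 25 of the 31 genes, with a median of -0.12 on the log2 scale against 0.0063 over all genes. In 21 genes every SNI + G15 library was below every SNI library, and in 1 every one was above, against 19.6% and 19.4% of all genes (38.9% in either direction). Each called gene fell by between 0.18 and 0.34 on the log2 scale. The 10 genes were 7 sterol enzymes, 2 fatty acid enzymes and 1 regulator.

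Hmgcs1, at the entry of the pathway, had 718, 732 and 709 CPM in SNI and 601, 562 and 609 in SNI + G15, below the 666 to 720 of sham as well. Its log2 fold change was -0.28 ± 0.040 with an adjusted p of 0.00241 by edgeR. The other called sterol enzymes act from the making of squalene onward. Fdft1 had 207, 219 and 211 CPM in SNI and 192, 186 and 179 in SNI + G15 (log2 fold change -0.20 ± 0.043.)
Sqle, the squalene epoxidase, had 153, 150 and 146 CPM in sham, 152, 148 and 153 in SNI and 131, 128 and 141 in SNI + G15 (log2 fold change -0.18 ± 0.048.) Lss had 73.1, 73.8 and 67.2 CPM in SNI + G15, between the sham and SNI values given above, a log2 fold change of -0.29 ± 0.048. Cyp51 had 412, 407 and 380 CPM in sham, 421, 433 and 413 in SNI and 371, 354 and 385 in SNI + G15 (log2 fold change -0.19 ± 0.042.) Thus 3 consecutive steps, from squalene to the demethylated sterol, were all called lower with G15 by edgeR. The call of Lss held in all 15 alternative fits, that of Sqle in 9 and that of Cyp51 in 10.
Hsd17b7, the ketoreductase of the demethylation complex, had 30.4, 29.4 and 27.6 CPM in sham, 30.7, 30.5 and 31.3 in SNI and 24.5, 25.7 and 23.9 in SNI + G15. It fell by 0.32 on the log2 scale (SE 0.054), and its SNI + G15 values lay below both other groups. Dhcr7 had 74.2, 77.3 and 64.8 CPM in SNI + G15 (log2 fold change -0.33 ± 0.067) against SNI, and these values overlapped the sham range. The 11 other sterol enzymes were not called. They include Mvd, with 64.4, 65.1 and 70.7 CPM in SNI + G15, and Msmo1, with 198, 192 and 208, whose log2 fold changes of -0.12 each had adjusted p values of 0.143 and 0.103 by edgeR. Pmvk, Mvk, Ebp and Tm7sf2 were the 4 sterol enzymes with a positive fold change, between 0.05 and 0.16, and none was called.

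In the fatty acid branch, Scd had 277, 264 and 263 CPM in SNI + G15 and the smallest adjusted p of the 31 genes, 0.000809 by edgeR. Its log2 fold change was -0.34 ± 0.038, and all SNI + G15 values were below all sham and SNI values. Fasn had 469, 479 and 391 CPM in SNI + G15 (log2 fold change -0.31 ± 0.070), with library 3 well below the other 2. Acaca had 89.5, 95.1 and 91.8 CPM in SNI and 82.9, 81.8 and 61.2 in SNI + G15, and its log2 fold change of -0.29 ± 0.10 did not pass (adjusted p of 0.0860 by edgeR). Acly had 477, 471 and 442 CPM and Fads1 had 304, 309 and 303 CPM in SNI + G15, and the log2 fold change of each was -0.07 and was not called.

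Of the regulators, Insig1 fell and the others did not pass the test. Insig1 had 154, 140 and 157 CPM in SNI + G15, all below the 179 to 192 of the other groups, a log2 fold change of -0.31 ± 0.052 with an adjusted p of 0.00536 by edgeR. Srebf2 had 174, 184 and 161 CPM in SNI + G15 (log2 fold change -0.17 ± 0.053) with an adjusted p of 0.0651. Srebf1 had 93.6, 98.1 and 79.9 CPM and overlapped the SNI values. Insig2 had 14.5, 15.8 and 14.7 CPM and a log2 fold change of 0.07. Abca1 had 183, 168 and 156 CPM, all below SNI but not called, at -0.20 ± 0.060 on the log2 scale (adjusted p of 0.0532 by edgeR). DESeq2 called 13 genes lower and none higher, the same 10 with Acaca, Srebf2 and Abca1. Over all genes tested DESeq2 called 1854, of which 948 were higher and 906 lower.

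The fold changes of this comparison ran with gene length. Spearman's rho between log2 fold change and effective length was -0.43 over the 14305 genes tested and -0.68 over the 31, where all points share the same 6 libraries, while in SNI against sham it was 0.06 and -0.08. With each library's trend with length taken out, rho became -0.05 and -0.32. In that fit 13 of the 31 genes were lower and none was higher, all 10 named above among them, and the median was -0.13. Over all genes tested it called 1733, of which 859 were higher and 874 lower. Hmgcs1 was then at -0.26, Lss at -0.29, Dhcr7 at -0.35, Insig1 at -0.33 and Scd at -0.27 on the log2 scale. Among the long genes Fasn was at -0.18, Acaca at -0.19 and Abca1 at -0.06, the last with an adjusted p of 0.374 by edgeR. The short Pmvk went from 0.16 to 0.01.
Without library 3 of SNI + G15, 16 of the 31 were lower and 1, Elovl1, an elongase of very long chains, was higher. Over all genes tested that fit called 2333, of which 1165 were higher and 1168 lower. Fasn was then at -0.22, Scd at -0.33, Insig1 at -0.34 and Hmgcs1 at -0.31. The calls of Hmgcs1, Lss, Hsd17b7, Scd and Insig1 held in all 6 fits with 1 library left out. Those of Dhcr7, Cyp51, Fdft1, Sqle and Fasn were lost without at least 1 SNI library. Sqle also lost its call without library 1 or library 2 of SNI + G15, and Cyp51 without library 2 of SNI + G15. Of the 31 genes 6, 5 and 5 were called without SNI library 1, 2 and 3, against 1098, 925 and 893 of all genes tested.

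**Figure D4:**
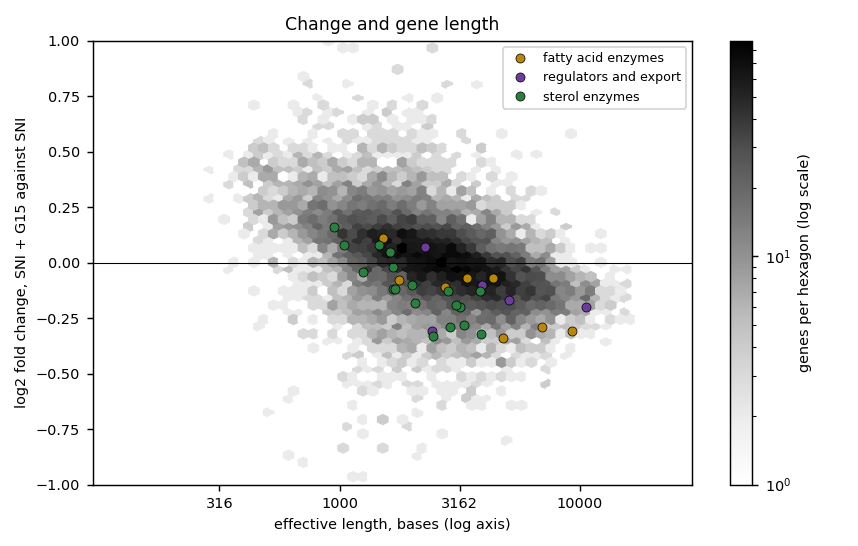
Log2 fold change of SNI + G15 against SNI by effective gene length (log axis), with gene density in grey and the 31 pathway genes as coloured points. The grey holds 14066 of the 14305 genes tested, and the 239 outside the range of the y axis are not drawn. The grey cloud slopes down (Spearman's rho -0.43 over all 14305 genes tested), and 25 of the 31 coloured points lie below 0.

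Cell markers moved in this comparison too. All 6 fibroblast markers were called higher with G15, and their summed FPKM was 449.9 to 451.7 in SNI against 606.4 to 629.8 in SNI + G15. Of 12 markers of myelinating Schwann cells 8 were called higher, and their sum was 3164 to 3223 in SNI against 3410 to 3549 with G15. All 5 erythroid markers were called lower, from between 318.2 and 327.1 to between 191.1 and 222.7 FPKM. Of 12 macrophage markers 3 were called higher and none lower. The adipocyte sum was 11.46 to 12.27 FPKM in SNI and 18.79 to 20.41 with G15, with 1 of 4 tested markers called higher. The satellite glia sum was 351.7 to 361.5 FPKM in SNI and 416.4 to 433.5 with G15. Of 7 satellite glia markers 3 were higher and 2 lower, and of 11 sensory neuron markers 1 was higher and 1 lower. Their part in the lower sterol and fatty acid transcripts was not tested.

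In the further pathway lists, 4 of 16 genes of sterol synthesis and uptake were lower with G15 and 1 higher. The shares called over all genes tested were 7.25% lower and 7.98% higher. Stard4, which carries cholesterol between membranes, had 46.0, 45.5 and 44.0 CPM in SNI and 37.9, 38.3 and 34.4 in SNI + G15, and it fell by 0.29. Erg28, a scaffold of the demethylation complex, fell by 0.34 on the log2 scale. The calls of Stard4 and Erg28 each held in 13 of 15 alternative fits.
Among the 14 genes of efflux and oxysterols 1 was called. Nr1h3, the liver X receptor of macrophages and liver, had 10.8, 9.13 and 9.03 CPM in SNI and 14.4 in each SNI + G15 library, and it rose by 0.58 ± 0.082. Of the 23 fatty acid genes 3 fell, namely Acsl6 by 0.27, Acsl4 by 0.25 and Scd2, a further stearoyl-CoA desaturase, by 0.14 on the log2 scale. The call of Acsl6 held in all 15 alternative fits and that of Acsl4 in 12. The call of Scd2 held in 7 of 15 alternative fits and was lost, at -0.0645, with the length correction.

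Both comparisons use the same SNI libraries, so their values are given side by side only. Of the 12 genes that rose after injury, Lss, Dhcr7 and Scd were called lower with G15 and 9 were not called. Of the 10 genes lower with G15, 6 (Hmgcs1, Sqle, Cyp51, Hsd17b7, Fasn and Insig1) had not been called after injury, and Fdft1 was lower in both.

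SNI + G15 was also compared with sham. Of the 31 genes 5 were higher and 11 lower (edgeR, adjusted p below 0.05), against 43.2% called of all genes tested, 21.4% higher and 21.9% lower. In 10 genes every SNI + G15 library was above every sham library and in 12 every one was below, against 28.1% and 25.8% of all genes (53.9% in either direction). With scaling to library size alone the split was 7 higher and 6 lower, against 3562 higher and 2594 lower over all genes. The higher genes were Abca1 with a log2 fold change of 1.11 ± 0.069, Lss with 0.42 ± 0.060, Pmvk with 0.39 ± 0.077, and Fdps and Acly with 0.17 each.
The lower genes were led by Fasn at -0.35 ± 0.080, Fdft1 at -0.32 ± 0.050, Srebf1 at -0.30 ± 0.077 and Insig1 at -0.28 ± 0.055. Hsd17b7 was at -0.25, Hmgcs1 at -0.23, Tm7sf2 at -0.19 and Sqle at -0.18, and Elovl5, Sc5d and Scd were between -0.16 and -0.15 on the log2 scale. Dhcr7 was at -0.07 and was not called. Without library 3 of SNI + G15, 6 were higher and 11 lower, against 6015 called of all genes tested. Insig1 (-0.30) and Fdft1 (-0.29) then lay below Fasn (-0.25) and Srebf1 (-0.21). Spearman's rho between log2 fold change and effective length was -0.2 over all genes tested and -0.41 over the 31. With the length correction 6 were higher and 9 lower, with Fdft1 at -0.30, Insig1 at -0.28 and Fasn at -0.26. Sc5d and Scd were then not called (adjusted p of 0.111 and 0.0719 by edgeR). The counts were 3 higher and 6 lower without sham library 1, and 3 higher and 7 lower without library 1 of SNI + G15. Those 2 fits called 5101 and 5474 of all genes tested. Cell type markers differed here too. All 12 macrophage markers were called higher, with a sum of 181 to 194.1 FPKM in sham and 436.4 to 491.8 in SNI + G15, as were all 6 fibroblast markers (467.3 to 477.2 and 606.4 to 629.8) and all 5 erythroid markers (95.23 to 99.23 and 191.1 to 222.7). Of 12 markers of myelinating Schwann cells 6 were lower and 2 higher (5540 to 5653 and 3410 to 3549). Of 11 sensory neuron markers 7 were lower and 3 higher, and of 7 satellite glia markers 2 were lower and 5 higher. Their part in these differences was not tested. Calls of 9 genes, Hmgcs1, Pmvk, Fdft1, Lss, Hsd17b7, Fasn, Srebf1, Insig1 and Abca1, held with any 1 library left out.

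For 16 of the 32 genes the deposited table listed 1 transcript, and for the other 16 it listed 2 to 5. Abca1 had 3, and its main transcript held 88.7 to 92.8% of the gene's FPKM in sham and 94.4 to 96.1% in SNI. For Sc5d, a sterol desaturase, the main transcript's share was 65.6 to 66.5% in sham and 54.4 to 60.0% in SNI, and for Acly it was 64.9 to 68.3% in sham and 71.9 to 73.6% in SNI. For Fads1 it was 89.5 to 93.7% in sham and 86.9 to 87.2% in SNI, and for Pmvk 92.5 to 93.9% and 94.9 to 100%. In these genes and in Abca1 the sham and SNI shares did not overlap. How often that holds over all genes was not counted. The main transcripts of Srebf1, Hsd17b7, Dhcr7 and Insig2 held shares that varied widely within groups, from 0.502 to 35.5% in sham for Hsd17b7. Estimated counts were not whole in all 9 libraries for Acat2, Sc5d, Scd, Srebf1 and Insig2. The same held in some libraries for Idi1 (6 of 9), Elovl6 (5), Hsd17b7 (4) and Fdft1 (3). Such counts can come from reads divided between features, which was not tested, and the values of these genes may be less certain. Among all genes in the deposited table, 70.9 to 72% had whole counts in each library. The precision of all values is set by the 3 libraries of each group.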

How the data were processed

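RNA-Seq of DRG tissue, 9 libraries in 3 groups, was used. For genes and transcripts the authors deposited estimated counts, which are not normalized and not always whole, and FPKM, with a gene's FPKM the sum over its transcripts. Aligner and counter are not given in the sources used here. The labels name mouse builds although the identifiers are rat RefSeq entries, so no coordinates of the counted features are given. The labels' extraction text names macrophages and another library kit than the methods. Columns headed Control were taken as sham, the group left by the other names.

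After rounding, the quasi-likelihood test of edgeR 4.0.16 in R 4.3.3 (TMM, 2 groups per fit, Benjamini-Hochberg) was run over the 14305 genes whose FPKM reached 1 in any library. A gene was called at an adjusted p below 0.05. CPM used TMM factors over all 9 libraries. The SE of a log2 fold change is its size divided by the root of the F statistic. The study's methods and supplement disagree on the number of rats per group, and the labels do not tie libraries to rats, so the spread between libraries may be partly technical. Alternatives used DESeq2 1.42.0, limma 3.58.1 (log2 of FPKM plus 1 or 0.1), other scalings, another filter, a joint fit of the 9 libraries, the replicate number as a block, and fits that each left out 1 library. A correction for gene length (lowess, span 0.3) was added after seeing the data. The edgeR, DESeq2 and length fits were tested on simulated counts. Promoter windows are from RefSeq.

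The members and lists were chosen with earlier results of these data known. Values per library are given for the sterol enzymes and fatty acid enzymes with the smallest adjusted p, for all regulators and for all genes called in SNI + G15 against SNI; from the further lists, up to 3 called genes per direction are named. Some genes that these rules select are not reported here.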

Additional observations from a re-analysis of the deposited data

How the results depend on the processing

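Counts of called pathway genes moved less in the injury comparison than in those with G15. In SNI against sham, leaving out single libraries gave 8 to 10 sterol enzymes (9 with all), 3 to 4 fatty acid enzymes (4) and 2 regulators (2), and no other setting moved these totals by over 1.5 times. In SNI + G15 against SNI the ranges were 3 to 11 sterol enzymes (7), 1 to 5 fatty acid enzymes (2) and 1 to 2 regulators (1), and over all genes 893 to 2333 (2179), the low values coming from fits without an SNI library. DESeq2 called 3 regulators and the fit of all 9 libraries 2. In SNI + G15 against sham the ranges were 5 to 10 sterol (9) and 1 to 4 fatty acid enzymes (4), with 5101 to 6015 genes overall (6186). There limma called 2 fatty acid enzymes with either pseudocount and the fit of all 9 libraries 7. The cause of these moves was not tested. Fits without a library also had fewer samples.

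Pairing by library number was not seen: 0 of 9 correlations of the deviations of same-numbered libraries were over 0.1 (-0.13 to 0.07). With 3 libraries per group, a weak pairing or one limited to some genes could be missed. With the replicate block, 4 sterol enzymes and 1292 genes overall were called in SNI + G15 against SNI.

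Fold changes that turned sign were not called in either direction, apart from Sc5d in SNI against sham, called higher with limma (0.122 and 0.124). In SNI against sham these were Fasn (0.0144 on library size, 0.0154 and 0.0157 with limma), Elovl5 (0.000482, 0.000293 and 0.000298 in the same fits), and, with all 9 libraries in one fit, Mvk (-0.00224) and Sc5d (-0.00092). With single libraries left out, Acaca ranged from -0.007 to 0.0804, Fasn from -0.0646 to 0.0328, Srebf2 from -0.0238 to 0.101, Mvk from -0.0342 to 0.0723 and Sc5d from -0.00479 to 0.034. In SNI + G15 against SNI they were Insig2 (-0.0489 and -0.0553 with limma), Mvk (-0.0141) and Ebp (-0.0457) with the length correction, and, with single libraries left out, Acat2 (-0.0561 to 0.0155) and Mvk (-0.0201 to 0.0848). In SNI + G15 against sham they were Nsdhl (0.0267 on library size, 0.021 and 0.0214 with limma), Fads2 (-0.011) and Mvk (-0.00541) with the length correction, and, with single libraries left out, Nsdhl (-0.0351 to 0.02), Fads2 (-0.000896 to 0.0471) and Dhcr7 (-0.113 to 0.0165).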
